A study of Rattus norvegicus with 11 samples.

Results

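The insulin-like growth factor (IGF) genes of rat bladder are described here: the ligands Igf1 and Igf2, the receptor Igf1r, and the 6 binding protein genes Igfbp2 to Igfbp7. They are 9 of the 18507 genes in the deposited table, and all 9 were matched by symbol. The 9 were chosen by their FPKM values in the same comparisons that are given below, PBOO against normal bladder at week 4 and at week 5. Their differences are therefore a description, with standard errors and without a test.

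RNA was sequenced from bladder tissues of female Sprague-Dawley rats of about 6 months. The study does not state which part of the bladder was taken. Partial bladder outlet obstruction (PBOO) was made by a suture tied around the bladder neck and urethra. The normal rats had an abdominal incision that was closed again, with no tie. At week 4 after surgery there were 3 PBOO and 3 normal samples, and at week 5 there were 2 PBOO and 3 normal samples, each week with its own normal group. A further PBOO week 5 sample did not pass the study's quality control during library preparation.

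IGF1 and IGF2 are secreted growth factors that signal for growth and survival through the receptor tyrosine kinase IGF1R and the AKT kinases behind it. Binding proteins hold most of the IGF outside cells, prolong its life and decide how much reaches the receptor, and smooth muscle cells and fibroblasts are among the cells that make and answer to them. In such tissue samples, fewer cells of a type, less RNA per cell and a difference in the part taken cannot be told apart.

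Upstream sequence is printed for 4 of the genes. The neighbouring pair Igfbp2 and Igfbp5 is among them because its members lay on opposite sides of normal at week 4. Igfbp3 and Igfbp6 are shown because they had the widest differences at week 4 and week 5. Among protein-coding genes, Igfbp2 and Igfbp5 follow each other on chromosome 9 in the RefSeq annotation of GRCr8, and they are read from opposite strands. Non-coding genes were not looked at. In the same order Igfbp3 lies next to Igfbp1 on chromosome 14. The 250 bases before each start site are given 5′ to 3′ from RefSeq GRCr8, at chr9:81864561-81864810 (+) for Igfbp2, chr9:81914188-81914437 (-) for Igfbp5, chr14:86277945-86278194 (-) for Igfbp3 and chr7:135154669-135154918 (+) for Igfbp6, with motif matches in capitals.
Igfbp2: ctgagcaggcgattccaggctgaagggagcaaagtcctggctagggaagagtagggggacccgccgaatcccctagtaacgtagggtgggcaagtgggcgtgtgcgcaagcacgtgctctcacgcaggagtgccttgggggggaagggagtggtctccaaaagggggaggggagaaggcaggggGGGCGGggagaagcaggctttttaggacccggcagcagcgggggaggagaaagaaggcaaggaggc
Igfbp5: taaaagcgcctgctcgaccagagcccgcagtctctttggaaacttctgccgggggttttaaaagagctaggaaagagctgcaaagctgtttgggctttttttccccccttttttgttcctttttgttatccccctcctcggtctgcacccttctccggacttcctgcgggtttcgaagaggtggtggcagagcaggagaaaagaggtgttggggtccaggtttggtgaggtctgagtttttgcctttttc
Igfbp3: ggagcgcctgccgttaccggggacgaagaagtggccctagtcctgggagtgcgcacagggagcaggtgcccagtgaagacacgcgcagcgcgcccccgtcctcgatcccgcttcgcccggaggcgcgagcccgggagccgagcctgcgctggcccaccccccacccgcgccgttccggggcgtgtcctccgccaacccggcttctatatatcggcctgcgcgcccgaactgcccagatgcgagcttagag
Igfbp6: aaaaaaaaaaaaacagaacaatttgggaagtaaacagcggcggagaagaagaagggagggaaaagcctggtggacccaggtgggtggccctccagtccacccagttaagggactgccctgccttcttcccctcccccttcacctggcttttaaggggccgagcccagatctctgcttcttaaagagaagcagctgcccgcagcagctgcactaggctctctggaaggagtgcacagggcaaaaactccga

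Windows of 300 bases, from 250 before the start to 50 after it, were on hand for all 9 genes (10 windows, since Igf2 has 2). They were searched on both strands, overlapping matches included, for TATAAA, the TATA box core (present in 14.2% of 33469 RefSeq windows), for GGGCGG, the GC box bound by Sp factors (33.1%), for TGANTCA, the AP-1 site (7.33%), and for the CArG box of serum response factor (1.64%). Igfbp2 held GGGCGG once, starting 66 bases before the start, and Igfbp7 held it 4 times. Igfbp4 held TATAAA 40 bases before its start. Igf1r and both Igf2 windows held GGGCGG, and 1 Igf2 window held a CArG box. No match was found in the windows of Igf1, Igfbp3, Igfbp5 and Igfbp6. The Igfbp2 and Igfbp5 windows also differed in base content, with 66.7% and 50.7% G and C, against a median of 51.7% over all windows. A match of letters is not a binding site, and no factor was measured here.

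The values are FPKM, fragments per kilobase of gene scaled to the fragments mapped in the sample, so levels of different genes can be set side by side. The columns summed to 424961 to 564343 FPKM, and the table holds no read counts, so sequencing depth is unknown. The weeks were not put on a common scale here: 4871 genes were listed at 0 in every week 4 sample but 403 in every week 5 sample, and the week 4 columns carry the word Input while the week 5 normal columns are named adult. Differences were therefore taken within a week, on log2(FPKM + 0.1). The median log2 difference of all genes tested was -0.25 at week 4 and 0.12 at week 5 (-0.01 and 0.02 after median-ratio scaling). Relative to those medians the 9 genes ranged from -2.64 to 1.59 at week 4 and from -5.26 to 0.11 at week 5.

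In normal bladder the binding protein mRNAs far exceeded those of the ligands and the receptor. At week 4 the order of mean FPKM was Igfbp7 (545 ± 91.0, SD, n = 3), Igfbp3 (285 ± 134), Igfbp2 (282 ± 20.4), Igfbp6 (205 ± 104), Igfbp5 (126 ± 62.8), Igfbp4 (74.8 ± 14.1), Igf1 (16.7 ± 7.56), Igf1r (5.93 ± 1.56) and Igf2 (5.35 ± 0.490). Igfbp7, Igfbp4 and Igf1 each stood clear of the next gene down, and every other pair of neighbours in that order overlapped. At week 5 the order in normal samples was Igfbp2 (323 ± 60.9), Igfbp7 (271 ± 20.6), Igfbp5 (131 ± 64.3), Igfbp6 (92.4 ± 1.23), Igfbp4 (81.2 ± 23.7), Igfbp3 (63.5 ± 6.32), Igf1r (6.20 ± 0.754), Igf2 (3.76 ± 0.963) and Igf1 (0.435 ± 0.372). There Igfbp7, Igfbp3, Igf1r and Igf2 stood clear of the next gene down. The normal groups thus ranked Igf1 differently in the 2 weeks, at 8.83 to 23.9 FPKM in week 4 and 0.131 to 0.850 FPKM in week 5, and these values are set side by side only.

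**Figure D1:**
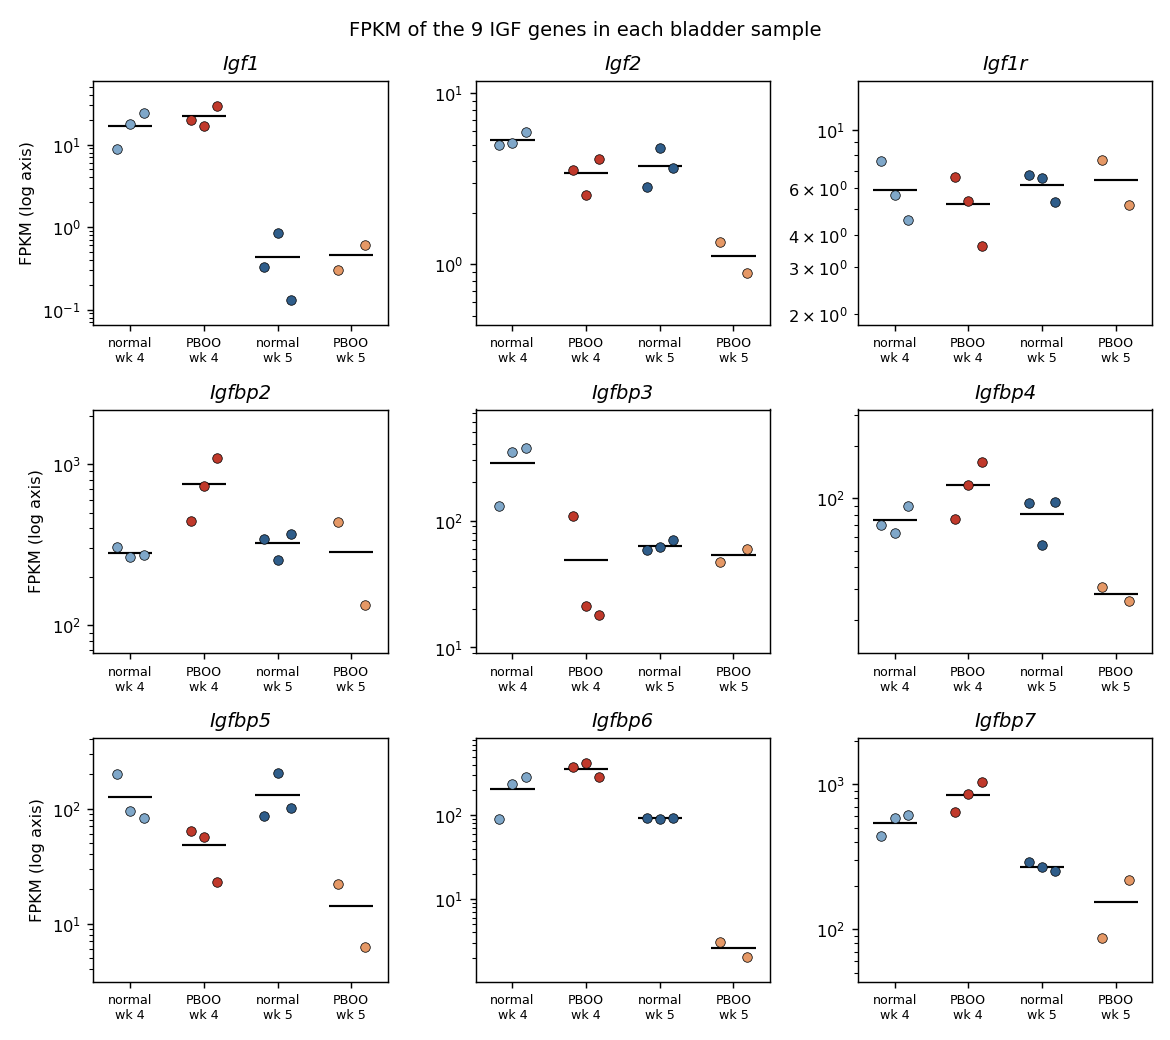
FPKM (log axis, own range in each panel) of the 9 IGF genes in each of the 11 samples, with a line at the group mean. In the week 4 panels Igfbp2 and Igfbp7 have all 3 PBOO samples above all normal samples, and in the week 5 panels Igfbp4 to Igfbp7 and Igf2 have both PBOO samples below all normal samples.

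At week 4, PBOO bladder had more Igfbp2 and Igfbp7 mRNA and less Igfbp3, Igfbp5 and Igf2 mRNA than normal bladder, with groups that did not overlap. All 9 genes passed the filter of a mean of 0.5 FPKM. Every PBOO sample lay above every normal sample in 2 of the 9 genes, where 6.63% of the 11320 genes tested did so, and below in 3 of the 9, where 34.9% did so. At week 5 both PBOO samples lay below every normal sample in 5 of the 9 genes (Igf2 and Igfbp4 to Igfbp7), where 25.0% of 13685 genes did so, and above in 0 of the 9, where 35.3% did so. These contrasts chose the genes, so nothing is read from the counts. Igf1, at a mean under 0.5 FPKM, was the 1 gene that failed the filter at week 5.

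Of the ligands, Igf1 carries most of the growth hormone response. In normal bladder at week 4 Igf1 stood at 8.83, 17.5 and 23.9 FPKM, and in PBOO at 19.8, 16.8 and 29.4. The groups overlapped, and the lowest value belonged to normal replicate 1. The log2 difference (PBOO minus normal) was 0.46 ± 0.38 (SE), and 0.06 without that replicate. At week 5 Igf1 was low throughout, at 0.324, 0.850 and 0.131 FPKM in normal and 0.299 and 0.611 in PBOO samples, with groups that overlapped (0.23 ± 0.67 on the log2 scale in a fit without the filter).

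Igf2, the imprinted ligand of fetal growth, was lower in PBOO samples in both weeks. At week 4 its normal samples read 5.00, 5.14 and 5.91 FPKM and its PBOO samples 3.54, 2.53 and 4.16. The groups were apart, by a narrow margin, and the log2 difference was -0.66 ± 0.22 (-0.41 after median-ratio scaling). At week 5 the normal samples held 2.85, 4.77 and 3.66 FPKM and the PBOO samples 1.35 and 0.885, again apart, with a log2 difference of -1.66 ± 0.31. The ratio of Igf1 to Igf2 in a sample, which no scaling of samples changes, was 1.77 to 4.05 in normal and 5.59 to 7.07 in PBOO samples at week 4. At week 5 it was 0.0358 to 0.178 in normal and 0.222 to 0.690 in PBOO samples. In both weeks the PBOO ratios lay above the normal ones, with Igf1 near the floor at week 5.

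Igf1r, the signalling receptor, had the smallest difference of the 9 in both weeks. It stood at 7.62, 5.65 and 4.53 FPKM in normal and 6.62, 5.37 and 3.63 in PBOO samples at week 4, and at 6.72, 6.55 and 5.34 in normal and 7.68 and 5.17 in PBOO samples at week 5. The groups overlapped in both weeks. Log2 differences were -0.20 ± 0.28 and 0.03 ± 0.22, and both changed sign under median-ratio scaling (0.05 and -0.07), so no direction is given.

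Igfbp2, a binding protein that can also attach to integrins, was the member that lay furthest above normal at week 4. Its normal samples were close together at 305, 267 and 274 FPKM, and its PBOO samples reached 444, 736 and 1091. All PBOO samples were higher, and they spread over a wider range than the normal ones. The log2 difference was 1.33 ± 0.30 (2.52-fold), and the mean rank of Igfbp2 among all genes moved from 245 to 98. At week 5 the normal samples stood at 345, 254 and 370 FPKM, while the 2 PBOO samples lay on either side of them at 439 and 134. The log2 difference of -0.40 ± 0.50 was set by single samples: it was 0.46 without PBOO replicate 2 and -1.25 without PBOO replicate 1.

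Igfbp3, the main carrier of IGF in blood, had the widest difference at week 4. It stood at 131, 349 and 375 FPKM in normal samples and at 108, 21.3 and 18 in PBOO samples. The groups did not overlap, but PBOO replicate 1 lay just under normal replicate 1, while the other 2 PBOO samples were far lower. The log2 difference was -2.89 ± 0.73 (7.44-fold lower). It was -3.38 without normal replicate 1 and -3.71 without PBOO replicate 1. At week 5 the Igfbp3 values of 58.1, 62.1 and 70.5 FPKM in normal and 47.1 and 60.0 in PBOO samples overlapped, with a log2 difference of -0.25 ± 0.16.

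Igfbp4, which is cleaved by the protease pregnancy-associated plasma protein A (Pappa), lay on different sides of normal in the 2 weeks. At week 4 normal samples had 70.5, 63.3 and 90.6 FPKM and PBOO samples 76.5, 119 and 162, which overlapped (log2 difference 0.62 ± 0.28). At week 5 normal samples had 94.0, 53.8 and 95.6 FPKM and PBOO samples 30.7 and 25.7, which did not overlap. The log2 difference there was -1.48 ± 0.28 (2.79-fold lower).

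Igfbp5, a binding protein held in extracellular matrix, was lower in PBOO samples in both weeks. Week 4 values were 198, 95.8 and 83.3 FPKM in normal and 64.0, 56.5 and 23.1 in PBOO samples. They did not overlap, and the log2 difference of -1.41 ± 0.46 became -1.03 without normal replicate 1, the highest sample. Week 5 values were 86.8, 205 and 101 FPKM in normal and 22.1 and 6.26 in PBOO samples, again apart, at -3.36 ± 0.61 on the log2 scale (10.2-fold lower). That difference was -4.26 without PBOO replicate 1 and -2.45 without PBOO replicate 2. The neighbour pair Igfbp2 and Igfbp5, whose upstream bases are printed above, therefore parted in both weeks: their FPKM ratio was 1.54 to 3.29 in normal and 6.93 to 47.3 in PBOO samples at week 4, and 1.24 to 3.98 in normal and 19.8 to 21.4 in PBOO samples at week 5.

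Igfbp6, which prefers IGF2, had the widest difference of all at week 5. In week 4 it was measured at 89.5, 237 and 289 FPKM in normal and 373, 419 and 289 in PBOO samples. The lowest PBOO sample lay just under the highest normal one, so the groups touched (log2 difference 0.96 ± 0.42, or 0.44 without normal replicate 1). In week 5 the normal samples were nearly equal at 93.0, 91.0 and 93.3 FPKM, and the PBOO samples stood at 3.10 and 2.06. Both were far below every normal sample, at a log2 difference of -5.14 ± 0.19 (35.2-fold lower). Its mean rank among all genes was 674 in normal and 10499 in PBOO samples.

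Igfbp7, a low-affinity relative found in vessel walls, was the 1 member whose groups were apart in opposite directions in the 2 weeks. Normal week 4 samples had 441, 584 and 610 FPKM and PBOO samples 646, 854 and 1044, all higher (log2 difference 0.62 ± 0.21). Normal week 5 samples had 293, 269 and 252 FPKM and PBOO samples 87.0 and 220, both lower (-0.97 ± 0.38). The lone values behind the week 5 difference were unlike, and it was -0.30 without PBOO replicate 1 and -1.64 without PBOO replicate 2.

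**Figure D2:**
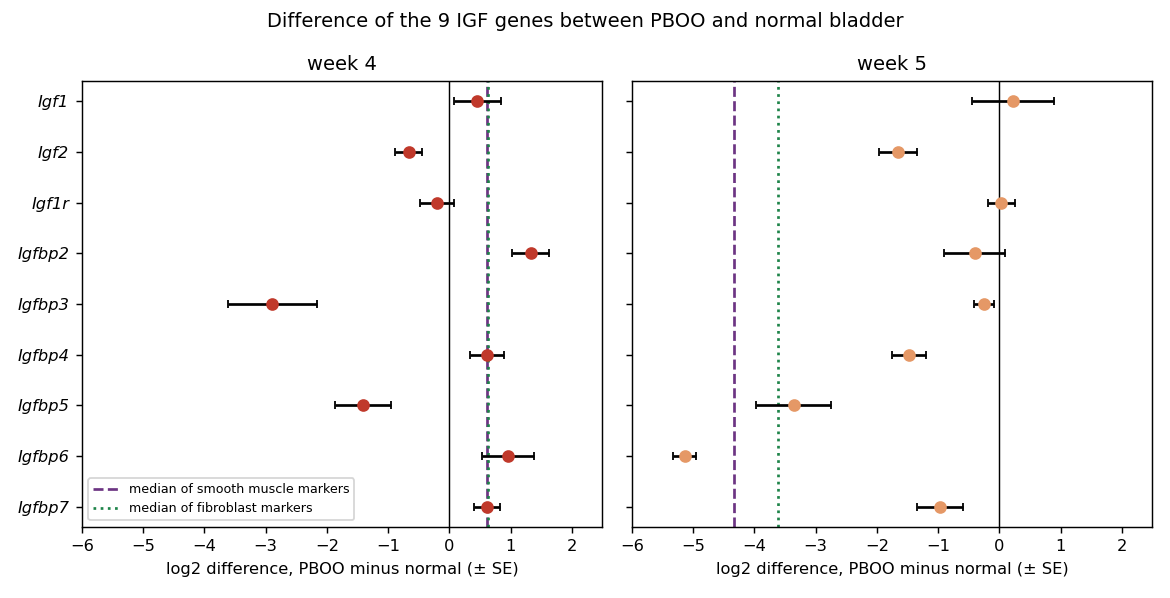
Log2 difference (PBOO minus normal, with its SE) of the 9 IGF genes at week 4 and week 5, with dashed and dotted lines at the median log2 difference of the 6 smooth muscle and 6 fibroblast marker genes. At week 5 Igfbp6 lies at -5.14, beyond both marker medians (-4.34 and -3.61), while Igf1r and Igfbp3 lie near 0.

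Shares of the summed binding protein FPKM show the same values without any effect of sample scaling. Igfbp2 made up 15.9% to 24.7% of the sum of Igfbp2 to Igfbp7 in normal and 25.9% to 41.5% in PBOO samples at week 4. Igfbp3 made up 10.6% to 21.9% and 0.685% to 6.30%, and Igfbp7 35.4% to 36.6% and 37.7% to 39.7%. The Igfbp2 to Igfbp3 ratio was accordingly 0.729 to 2.33 in normal and 4.11 to 60.6 in PBOO samples. At week 5 Igfbp6 made up 9.49% to 9.74% of the sum in normal and 0.459% and 0.493% in PBOO samples. The 2 PBOO week 5 samples differed in their leading mRNA, since Igfbp2 was 69.8% of the sum in replicate 1 and Igfbp7 49.1% in replicate 2. The whole sum was 1236 to 1722 FPKM in normal and 1711 to 2627 in PBOO samples at week 4, and 934 to 982 and 448 to 629 at week 5. Per FPKM of Igf1 and Igf2 together, the high-affinity binders Igfbp2 to Igfbp6 amounted to 37.3 to 57.5 FPKM in normal and 45.6 to 70.1 in PBOO samples at week 4, which overlapped, and to 119 to 214 and 152 to 329 at week 5, which overlapped too.

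**Figure D3:**
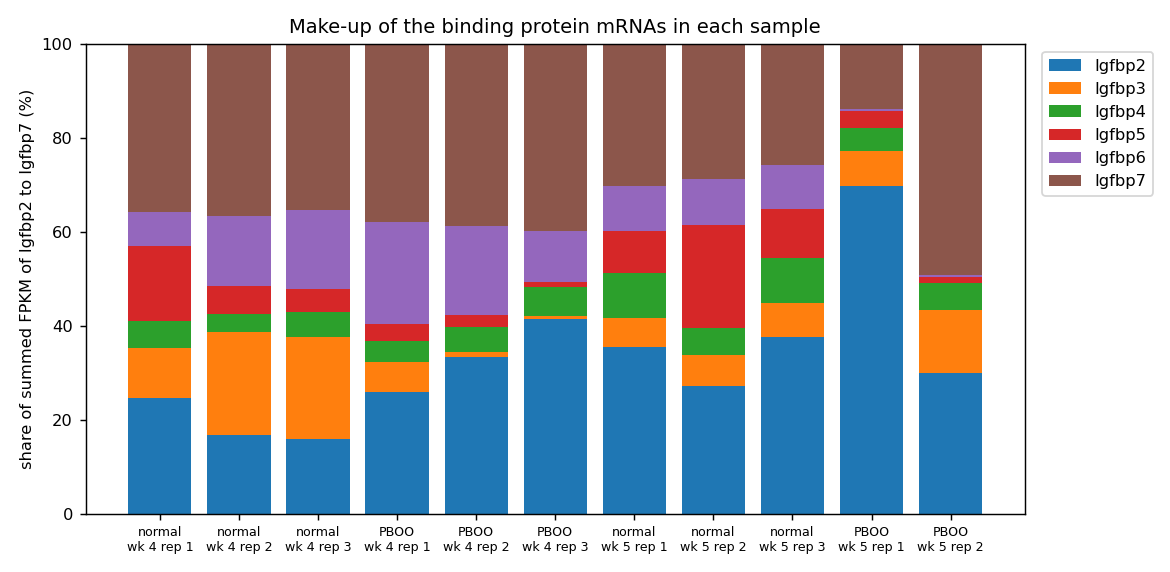
Share (%) of each binding protein gene in the summed FPKM of Igfbp2 to Igfbp7, 1 bar per sample. The Igfbp3 share is under 7% in the 3 PBOO week 4 samples and over 10% in the normal week 4 samples, and the Igfbp6 share is under 1% in both PBOO week 5 samples.

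Several of the cell type marker lists differed between PBOO and normal samples, and their part in the IGF values was not tested. Risen and fallen markers are those called at 2-fold with an unadjusted p under 0.05 in limma. Of all genes, 9.82% rose and 12.6% fell at week 5, and 2.46% and 2.45% at week 4. At week 5 the 6 smooth muscle markers (Acta2, Myh11, Cnn1, Des, Tagln, Smtn) summed to 19772 to 23335 FPKM in normal and 702 to 1416 FPKM in PBOO bladder, and 6 of 6 fell (median log2 difference -4.34). The 6 fibroblast markers summed to 1034 to 1292 and 74.6 to 118 FPKM, and 6 of 6 fell (median -3.61). The 5 leukocyte markers summed to 9.90 to 25.2 and 88.2 to 112 FPKM, with 4 of 5 risen. Urothelial markers summed to 5248 to 6155 and 4511 to 5620 FPKM, with 1 of 6 risen and 3 fallen. The labelled bladder tissue was thus present in its urothelial markers in every group, while the muscle markers of PBOO week 5 stood at 0.0663 and 0.0329 of the normal median. Igfbp6 stood at 0.0334 and 0.0221 of its normal median in the same 2 samples, and Igfbp3 at 0.758 and 0.967.

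At week 4 smooth muscle markers summed to 21054 to 22543 FPKM in normal and 34943 to 52454 FPKM in PBOO bladder, with 2 of 6 risen and 0 fallen. Skeletal muscle markers reached 360 to 2992 FPKM in PBOO against 171 to 243 in normal samples, urothelial markers 2840 to 3534 against 4791 to 5834, and nerve and glia markers 604 to 907 against 994 to 1411. By call, 2 of 5 skeletal muscle markers rose, and 1 of 6 urothelial and 2 of 5 nerve and glia markers fell, with 0 called the other way. Among fibroblast and leukocyte markers 0 were called at week 4. PBOO replicate 3 had the highest smooth and skeletal muscle sums of week 4, the highest Igfbp2, Igfbp4 and Igfbp7, and the lowest Igfbp3 and Igfbp5. Normal replicate 1 stood apart from the other normal samples, with fibroblast markers at 703 FPKM (2879 and 2893 in the others) and leukocyte markers at 12.9 FPKM (83.1 and 90.7). It was also the normal sample with the lowest Igf1, Igfbp3, Igfbp6 and Igfbp7 and the highest Igfbp5. The remaining lists, endothelium and hepatocyte, had summed levels of 87.2 to 104 and 4.09 to 5.47 FPKM in normal and 87.2 to 95.4 and 1.16 to 3.10 in PBOO samples at week 4. At week 5 they had 25.2 to 55.0 and 0.968 to 1.36 in normal and 52.8 to 74.2 and 0.441 to 0.517 in PBOO samples, and Alb, the defining hepatocyte gene, was near 0 throughout. At week 5 nerve and glia markers summed to 763 to 826 and 727 to 1314 FPKM, with 4 of 5 fallen, and skeletal muscle markers to 205 to 232 and 22.4 to 22.6 FPKM, with 4 of 4 tested fallen.

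**Figure D4:**
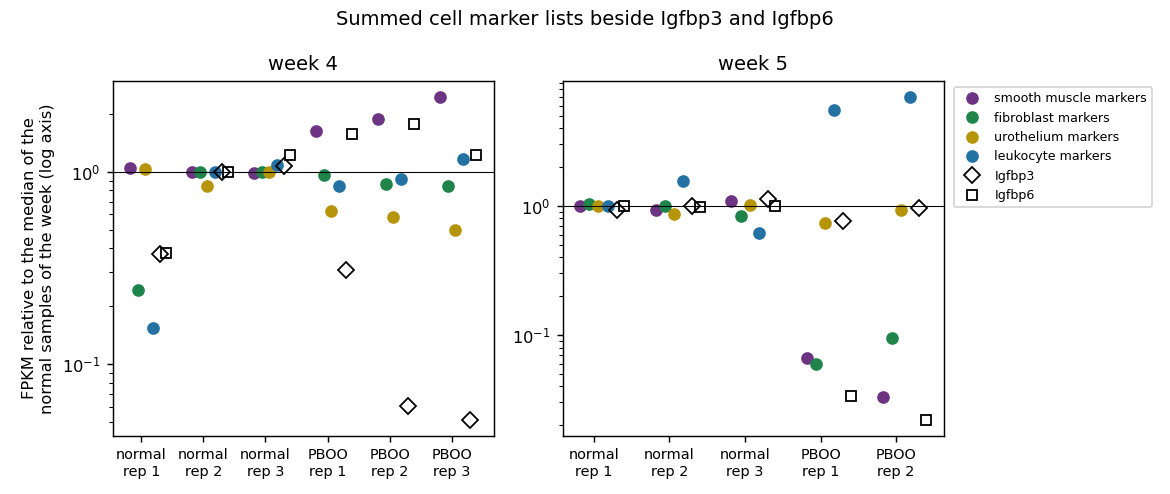
Summed FPKM of 4 marker lists, and FPKM of Igfbp3 and Igfbp6, in each sample relative to the median normal sample of its week (log axis). At week 5 Igfbp6 sits beside the smooth muscle and fibroblast sums at under 0.1 of normal in both PBOO samples while Igfbp3 stays near 1. At week 4 Igfbp3 is low in PBOO samples whose fibroblast sum is 0.846 to 0.960 of normal. Normal replicate 1 of week 4 has Igfbp3 at 0.375 and a fibroblast sum at 0.244. The median log2 difference of the fibroblast markers at week 4 is 0.63, and a link with Igfbp3 was not tested.

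The genes around the 9 were read from 4 lists of the IGF pathway, of which 63 of 66 genes are in the table. H19, Meg3 and Tmem219 were not analysed here. The threshold for a call was 2-fold with p under 0.05, unadjusted, in limma fitted over all genes of the week. At week 4, 1 of the 55 genes tested rose and 2 fell, where 2.46% and 2.45% of all genes did so. With the Benjamini-Hochberg adjusted p in place of the unadjusted one, 0 of the 55 were called in limma and 0.371% of all genes. An unadjusted p under 0.05 at any fold was reached by 13 of the 55. For such any-fold counts, here and per list below, no share of all genes was taken, so nothing is read from them. Median-ratio scaling gave 2 risen and 1 fallen, and a pseudocount of 1 gave 0 and 1. At week 5, 4 of the 54 tested rose and 14 fell, where 9.82% and 12.6% of all genes did so, and 3 and 13 were called with the adjusted p, where 19.3% of all genes were called in either direction. With a pseudocount of 1 the week 5 counts were 2 and 8. The 4 lists were chosen with earlier results of these data known. Igfbpl1, Igf2bp3, Peg3 and Dlk1 passed the week 5 filter through their normal groups and are among the fallen genes. Nothing is therefore read from these counts. In the normal and PBOO groups of 3 and 2 or 3 samples, the exact permutation test of a single gene cannot go below a two-sided p of 0.1, so calls rest on limma's spread shared across genes.

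Outside the cell, week 4 calls were Stc2, an inhibitor of the pappalysin proteases, and Igfbpl1, an IGFBP-like gene. Stc2, the 1 gene called higher, was listed at 0, 0 and 0.0600 FPKM in normal and at 0.404, 0.543 and 2.55 in PBOO samples. It passed the filter on low values only through the PBOO group, was not tested without PBOO replicate 3, and was not called with a pseudocount of 1, so its call carries no weight here. Igfbpl1 fell from 3.43, 1.61 and 2.10 to 1.79, 0.547 and 0.630 FPKM (log2 difference -1.30 ± 0.49, adjusted p = 0.128), with groups that overlapped. That Igfbpl1 call was lost in 4 of 6 fits that left out a sample, among them the fit without normal replicate 1 (-1.01), and under both scalings and a pseudocount of 1 (-0.78). At week 5, where 12.6% of all genes fell and 9.82% rose, 3 of 7 genes tested in this list fell and 0 rose. They were Ghr, the growth hormone receptor (3.84, 3.40 and 4.72 FPKM in normal, 0.371 and 0.769 in PBOO; adjusted p = 0.00405), Stc1 (log2 difference -1.21 ± 0.27, and -0.98 and not called without normal replicate 2) and Igfbpl1 (-2.85 ± 0.70). With a pseudocount of 1 the Igfbpl1 and Stc1 calls were lost (-0.92 and -0.95) and Ghr kept its call at -1.67. Igfbpl1 passed the filter through its normal group, and it was not tested without normal replicate 3. This list was chosen with earlier results of these data known, so nothing is read from its counts.

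The clearance receptor Igf2r, which takes up IGF2 without growth signalling, was measured at 67.1, 51.6 and 48.1 FPKM in normal and 48.9, 46.0 and 59.8 in PBOO samples at week 4, and at 39.5, 36.3 and 45.7 and 34.1 and 21.3 at week 5. It was called in neither week. Insr, the insulin receptor, stood at 9.88 to 10.4 FPKM in normal and 7.87 to 12.1 in PBOO samples at week 4. At week 5 Insr read 3.64, 3.26 and 3.29 FPKM in normal and 2.74 and 2.41 in PBOO samples, both lower. Insr was called in neither week. Pappa, whose product cleaves IGFBP4, was listed at 0 in every week 4 sample and at no more than 0.331 FPKM at week 5. Igfbp1 and Igfals, the usual liver products of the family, stayed under 0.3 FPKM in every sample.

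Among adaptors and PI3K-AKT-mTOR genes, 0 of 27 were called at week 4, and 4 passed 0.05 unadjusted at any fold. At week 5, 2 of 28 rose and 4 fell (7.14% and 14.3%). These shares are near the 9.82% and 12.6% of all genes, so the counts do not set the list apart. The receptor-bound adaptors Grb14 and Grb10, which damp insulin and IGF receptor signalling, fell, Grb14 from 11.9, 10.8 and 11.4 FPKM in normal to 1.44 and 0.616 in PBOO samples and Grb10 from 3.62, 4.25 and 3.42 to 0.972 and 1.09, with log2 differences of -3.45 ± 0.34 and -1.77 ± 0.21 (adjusted p = 0.00179 and 0.00327). Irs1, the docking protein of both receptors, fell by 1.21 ± 0.33, and that call was lost without PBOO replicate 1 (-0.91) or normal replicate 1 (-1.08) and with the replicate number as a block (-1.17). Ptpn11, a phosphatase that carries receptor signals towards RAS, fell too (log2 difference -1.03 ± 0.15, adjusted p = 0.00629), a call lost without PBOO replicate 2 (-0.83), without normal replicate 3 (-0.99) or with the replicate number as a block (-0.99). Pik3cb, a catalytic PI3-kinase subunit, rose from 1.66, 1.79 and 1.38 FPKM to 4.81 and 3.32 (1.27 ± 0.25, adjusted p = 0.0164). The regulatory subunit gene Pik3r3 rose by 1.08 ± 0.30, a call lost without PBOO replicate 2 (0.63), without normal replicate 2 (0.98) and with median-ratio scaling (0.98). With a pseudocount of 1 the calls of Irs1 (-0.72), Pik3cb (0.94) and Pik3r3 (0.98) were lost, and Grb14 stood at -2.64.

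Of the FOXO factors and the genes that answer to them, 0 of 14 were called at week 4, and 3 passed 0.05 unadjusted at any fold. At week 5, 1 of 12 rose and 2 fell (8.33% and 16.7%), again near the shares of all genes (9.82% and 12.6%). Klf15 and Foxo4 fell, with log2 differences of -1.41 ± 0.30 and -1.07 ± 0.27. Ddit4, an inhibitor of mTORC1, was called higher (1.34 ± 0.46, adjusted p = 0.0779), from 3.60, 5.99 and 4.76 FPKM to 7.22 and 20.1. The Ddit4 and Foxo4 calls were lost without PBOO replicate 2 (0.61 and -0.62; Ddit4 stood at 2.08 without PBOO replicate 1), and the Ddit4 call also without normal replicate 1 (1.16) or 3 (1.36). With a pseudocount of 1 the Klf15 and Foxo4 calls were lost (-0.87 and -0.99).

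In the list of IGF2 mRNA binding proteins and imprinted genes, 5 of 7 genes tested fell at week 5 and 1 rose, against 1 of 6 fallen and 0 risen at week 4. Of all genes, 12.6% fell and 9.82% rose at week 5, and 2.45% and 2.46% at week 4. The list was chosen with earlier results of these data known, so nothing is read from its counts. Igf2bp3 and Igf2bp2 bind Igf2 mRNA and parted at week 5. Igf2bp3 fell from 3.21, 3.39 and 5.29 FPKM to 0.0814 and 0.0792 (log2 difference -4.46 ± 0.34, adjusted p = 0.000791), and was listed at 0 in every week 4 sample. Igf2bp2 rose from 4.73, 4.56 and 2.55 FPKM to 20.8 and 11.2 (1.98 ± 0.38, adjusted p = 0.0146). The imprinted growth regulators Cdkn1c, Peg3 and Plagl1 fell at week 5, with log2 differences of -3.85 ± 0.19, -3.22 ± 0.61 and -3.12 ± 0.25. Dlk1, another imprinted gene, fell at week 4 from 2.67, 3.72 and 3.37 FPKM to 0.598, 0.326 and 1.11 (-2.22 ± 0.41, adjusted p = 0.0538). At week 5 Dlk1 was called lower too (-2.21 ± 0.75, adjusted p = 0.0755), a call lost without any 1 of the 3 normal samples, with quantile normalization (-1.99) and with a pseudocount of 1 (-0.71). Without PBOO replicate 1 and PBOO replicate 2 the Dlk1 difference was -3.34 and -1.07. With a pseudocount of 1, Igf2bp3, Plagl1 and Peg3 kept their week 5 calls at -2.18, -2.07 and -1.91, and Dlk1 its week 4 call at -1.36. Igf2bp3, Peg3 and Dlk1 passed the week 5 filter through their normal groups, with PBOO means of 0.0803, 0.328 and 0.192 FPKM. The week 5 count of fallen genes includes them. Both Igf2bp3 values in PBOO lie below the pseudocount of 0.1, so the size of its difference rests on that setting.

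**Figure D5:**
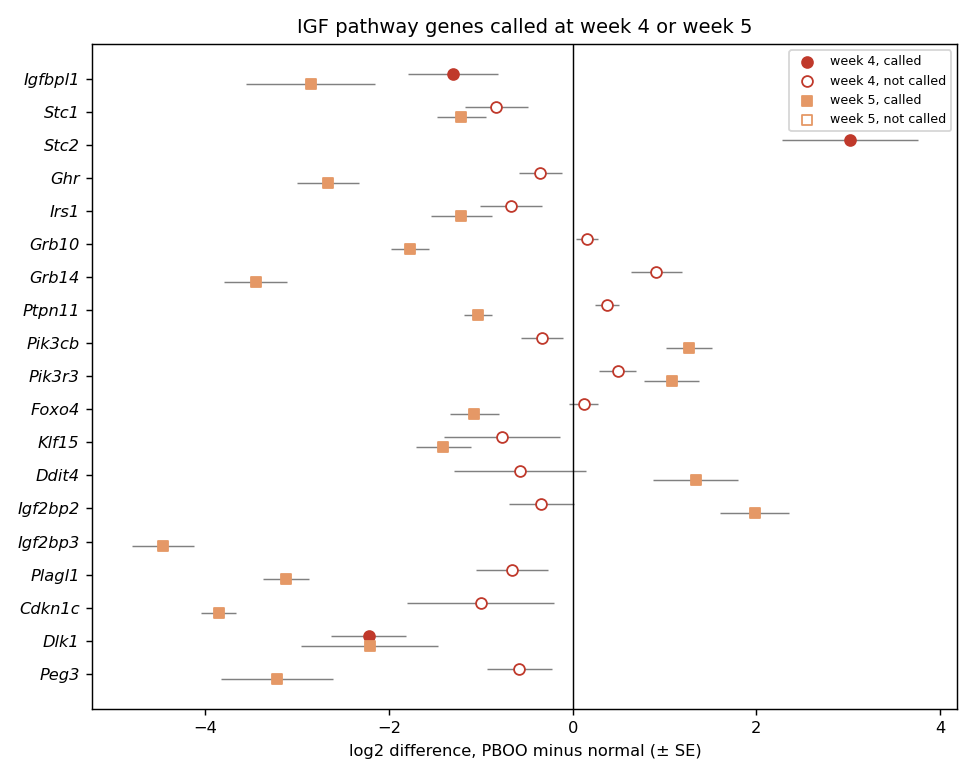
Log2 difference (PBOO minus normal, with its SE) of the IGF pathway genes called at week 4 (circles) or week 5 (squares), filled where called. Most week 5 points lie left of 0, with Pik3cb, Pik3r3, Ddit4 and Igf2bp2 to the right, and a missing point means that the gene did not pass the filter of that week.

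Whether the PBOO difference itself changed between weeks was tested by an interaction term over all 11 samples. The weeks may have been processed apart, so a change with time cannot be told apart from a difference between the 2 sets of samples. Of 54 pathway genes tested, the week 5 difference was higher than that of week 4 in 3 and lower in 9, where 17.6% and 12.5% of all genes were so called, and with the Benjamini-Hochberg adjusted p of limma the counts were 3 and 8 (27.2% of all genes in either direction). The median of all genes shifted by 0.35 between the weeks (0.07 after median-ratio scaling). The widest was that of Grb14 (-4.36 ± 0.47), whose mean FPKM was above normal at week 4 and below it at week 5. For the IGF members the same subtraction, given without a test, ran from -6.10 ± 0.55 for Igfbp6, -2.10 ± 0.44 for Igfbp4, -1.95 ± 0.84 for Igfbp5, -1.73 ± 0.62 for Igfbp2, -1.59 ± 0.45 for Igfbp7 and -1.0 ± 0.38 for Igf2 to 2.64 ± 0.91 for Igfbp3, with Igf1 (-0.23 ± 0.78) and Igf1r (0.23 ± 0.40) within their SE of 0.

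Genes that varied most like each member were ranked by Pearson r over the 11 samples among 9970 genes, after the midpoint of the groups of each week was subtracted. The difference between PBOO and normal remains in such values, and the 11 points share the same libraries, so r is a description. Igfbp6 was followed most closely, by Tpst1 (r = 0.993), Ikbip (0.992) and Reck (0.990), and Igfbp5 by Hibadh (0.973), Abcb6 (0.972) and the glial factor Sox10 (0.969). Igfbp4 was nearest to Cap1 (0.971), Igfbp7 to Cdh11 (0.965), Igfbp3 to Crcp (0.965) and Igfbp2 to Fjx1 (0.953). Igf2 was nearest to Ces1d (0.964), Igf1r to Tm9sf4 (0.952), and Igf1 to Nucb2 (0.934), Lyl1 (0.927) and Lyve1 (0.914), the last a marker of lymphatic vessels and tissue macrophages. No member was among the 3 genes nearest to any other member, with Igf1 itself too low at week 5 to be ranked for the others.

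Igf1r, Igf2 and Igfbp7 overlap another protein-coding gene in RefSeq (Pgpep1l, LOC102548568 and Polr2b), and overlaps with non-coding genes were not looked at. The strand used in counting is not stated, so reads of an overlapping pair cannot be told apart.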

How the data were processed

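The authors made TruSeq libraries from bladder RNA, sequenced them in pairs, trimmed the reads and mapped them with HISAT2, and assembled them with StringTie. The deposited values are FPKM for 18507 genes in 11 columns, each assigned by its sample description, and 0 columns were left unused. The submitters' processing notes list the mouse build mm10. Of the symbols, 15559 match rat RefSeq genes, 425 start with the rat prefix RGD and 0 end in the mouse-style Rik. The build behind the values was not settled, so no coordinates were taken from the table. The 9 members and the pathway and marker lists were chosen with earlier results of these data known. Results of some listed genes are not reported here, and those genes were left out of the lists.

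Values were analysed as log2(FPKM + 0.1) with limma 3.58.1 (R 4.3.3; lmFit, eBayes with a trend), each week apart, over genes that averaged 0.5 FPKM or more, and over all 11 samples for the interaction. A gene was called at p under 0.05 and 2-fold, with Benjamini-Hochberg adjusted p beside it. The limma steps were run on simulated data with independent errors and with changes planted only in genes well above the floor. That run does not cover calls of genes near the floor. Counts are not in the table, so no count-based test was run. Replicates are separate samples by their labels, and the study calls them biological.

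Named were all members and, per list, week and direction, up to 4 called genes with the largest fold, plus the 3 genes most like each member. Igf2r, Insr, Pappa, Igfbp1 and Igfals were added after their values were seen. Alternatives were a pseudocount of 1, no filter, median-ratio scaling, quantile normalization, no trend, a replicate block and each sample left out. Promoters are from RefSeq GRCr8. Python 3.11.15, pandas 2.3.3, numpy 2.4.6 and matplotlib 3.10.9 were used.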

Additional observations from a re-analysis of the deposited data

Results flagged for a closer look

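The PBOO difference of 10 of the named pathway genes differed between week 4 and week 5 by limma's interaction term, with a Benjamini-Hochberg adjusted p under 0.05 for each. Week and sample set go together, so an effect of time and one of the set cannot be told apart. In all, 11 of 54 pathway genes tested were so called, against 27.2% of all genes, so the count does not set the pathway apart. The week 5 minus week 4 log2 difference was -4.36 for Grb14, -2.86 for Cdkn1c, -2.63 for Peg3, -2.46 for Plagl1, -2.31 for Ghr, -1.93 for Grb10, -1.41 for Ptpn11 and -1.19 for Foxo4. It was 2.31 for Igf2bp2 and 1.60 for Pik3cb. The Cdkn1c and Foxo4 calls were lost without PBOO week 5 replicate 2 (-2.66 and -0.74), and Cdkn1c stood at -1.83 without PBOO week 4 replicate 1 and -3.51 without PBOO week 4 replicate 3. At week 4 Cdkn1c also varied widely among PBOO samples, at 110, 15.9 and 10.7 FPKM against 41.8 to 68.1 in normal samples.

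Igfbp7 lay above every normal sample in the 3 PBOO samples of week 4 and below every normal sample in the 2 of week 5. Its week 5 minus week 4 log2 difference was -1.59, and this difference was not tested. The summed smooth muscle markers also lay above normal at week 4 and below it at week 5, and their part was not tested. Groups of 2 or 3 samples were not searched for outlying samples.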

How the results depend on the processing

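No named pathway call changed direction under any alternative run. Of the members, Igf1r changed sign in both weeks under median-ratio scaling, and with 1 sample left out Igf1r did so in both weeks and Igf1 and Igfbp2 at week 5. With a pseudocount of 1, pathway calls were 0 risen and 1 fallen at week 4 and 2 and 8 at week 5, Igf2 and Igfbp6 stood at -1.16 and -4.72 at week 5, and the difference between weeks of Igf2 at -0.62. Median-ratio scaling and quantile normalization each gave 2 risen and 1 fallen at week 4, and the adjusted p gave 0 and 0. Quantile normalization put the differences between weeks at -2.24 for Igf2, -6.90 for Igfbp6 and -2.10 for Igfbp7. Leaving out 1 sample at a time gave 0 to 2 risen and 1 to 6 fallen at week 4 (2 and 6 without PBOO replicate 1), 2 to 5 and 11 to 14 at week 5, and 2 to 5 higher and 7 to 9 lower for the difference between weeks. Week 5 ranges were -0.25 to 0.31 for Igf1r, -1.25 to 0.46 for Igfbp2, -4.26 to -2.45 for Igfbp5, -5.42 to -4.85 for Igfbp6 and -1.64 to -0.30 for Igfbp7. A fit with 1 PBOO week 5 sample takes that sample to vary like the others. Differences between weeks ranged from -2.58 to -0.87 for Igfbp2, -2.85 to -1.04 for Igfbp5 and -2.26 to -0.92 for Igfbp7. The median Igfbp2 to Igfbp3 ratio of normal week 4 samples ranged from 0.747 to 1.55. At week 4, deviations from the group mean correlated at 0.154, -0.024 and 0.232 for same-numbered samples and at -0.21 to 0.094 for different numbers. At week 5 same-numbered samples stood at -0.001 and 0.124. There the deviations of the 2 PBOO samples mirror each other, so their r with a normal sample differ only in sign. Such r cannot decide whether equal numbers mark a pair, and the labels state no pairing. With a replicate block, pathway calls were 1 and 2 at week 4 and 4 and 12 at week 5. Of the named pathway calls, 1 of 3 at week 4, 10 of 18 at week 5 and 8 of 10 between weeks were kept in every fit without a sample, with a gene that dropped below the filter counted as not kept. Depth is unknown, so the counting error of values near 0 could not be estimated.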
